A study of Sus scrofa domesticus with 4 samples.

Results

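The swine MHC class II genes SLA-DRA, SLA-DRB1, SLA-DQA1, SLA-DQB1, SLA-DMA and SLA-DMB were followed in explants of pig myometrium, the smooth muscle wall of the uterus, with and without orexin A (OXA). Every non-control probe whose design accession is a RefSeq transcript of these genes was taken, which gave 26 probes of 6 genes, out of 43603 probes and 3029 named genes on the array. SLA-DRA and SLA-DQA1 had 7 probes each, SLA-DRB1 and SLA-DQB1 had 4 each, and SLA-DMA and SLA-DMB had 2 each. The tissue came from 4 gilts, Large White x Polish Landrace crosses 7 to 8 months old, on days 15 to 16 of gestation, so treated and non-treated explants alike are tissue of early pregnancy. Explants of about 100 mg were preincubated for 2 h at 37 °C and then cultured for 24 h with OXA or without it. The sample labels give the dose as 10 nM and the series' design text as 10 µM, and which is right was not settled here. On each of 4 dual-colour arrays, treated and non-treated RNA were hybridised together under different dyes. The labels do not state that both channels of an array come from the same gilt, and cultures were run in duplicate within each of 4 experiments. Whole explants were measured, so fewer cells of a type and less RNA per cell cannot be told apart.

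MHC class II molecules are pairs of an alpha and a beta chain that carry peptides of engulfed proteins to the cell surface, where CD4+ T cells read them. DR and DQ are the presenting pairs, and DM is a helper in endosomes that exchanges the placeholder peptide of the invariant chain (CD74) for an antigen peptide. Macrophages, dendritic cells and B cells make class II molecules constitutively, and interferon gamma, which pig conceptuses secrete around implantation, induces them in other cells. The question the study's comparison puts to these genes is whether their transcripts differ after exposure to OXA. In the RefSeq annotation of assembly Sscrofa11.1, used here for names and neighbours only, the order is SLA-DRA, SLA-DRB1, SLA-DQA1, SLA-DQB1, SLA-DMB and SLA-DMA. The pseudogenes SLA-DRB4, SLA-DQB2, SLA-DRB5 and SLA-DYB lie between them, and whether probes also catch such copies or miss some alleles was not tested.

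All 4 arrays sat on 1 slide with 1 scan. A probe counts as detected in a channel where the scanner software flagged its signal as well above background. The detected share was 41.5% to 61.1% in the non-treated channel and 39.9% to 49.7% in the OXA channel, the highest being that of non-treated tissue on array 4. Per the sample labels, arrays 1 and 3 had OXA in Cy5 and arrays 2 and 4 had the dyes swapped, whereas the labelling protocol puts OXA in Cy5 throughout. Over 19437 tested probes, which are not independent, arrays 1 and 4 correlated at r = 0.62 and arrays 1 and 2 at r = -0.59. Between arrays 2 and 4, of the same dye orientation, r was -0.38, so the direction of the ratios is not settled. Values below follow the sample labels. Results with array 2 turned, or with OXA in Cy5 on all arrays, stand beside them. Smooth muscle transcripts, the defining markers of the tissue, were measured for 7 of 10 listed genes, and all 7 passed the filter for testing described below.

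The class II genes were readily detected in this tissue. Of the 26 probes, 23 were detected in every channel of the 4 arrays, and none had a saturated or outlier spot. All 26 passed the filter for testing, which asks for detection on 3 or 4 arrays in at least 1 of the conditions. Of these, 24 passed through both channels. The other 2, A_72_P631166 of SLA-DQB1 and A_72_P629649 of SLA-DMB, passed through the OXA channel only.

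No class II gene passed the test for a difference between OXA-treated and non-treated tissue. With limma, 0 of 26 class II probes were called, against 0% of 19505 probes tested, and 0 of 26 had an unadjusted p under 0.05, against 1.22% of all tested probes (237 probes). The adjusted p was 0.998 for each of the 26 probes. Below, log2 ratios are OXA over non-treated from the deposited value table, a positive value means more signal with OXA, and each gene is described by its brightest probe, with the others as a range. Intervals are limma's 95% intervals for the mean log2 ratio.

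SLA-DRA encodes the alpha chain of DR, the partner of every DR beta chain. Its processed signals in non-treated tissue were 4476, 3420, 2804 and 9388 on arrays 1 to 4, and with OXA they were 5595, 3454, 3309 and 12010. Its log2 ratio was 0.32, 0.014, 0.24 and 0.36 on arrays 1 to 4. The ratio was thus above 0 on each array, with array 2 close to 0. The mean was 0.23 ± 0.15 (SD, n = 4), or 1.18-fold, and the interval ran from -0.39 to 0.86, so changes between 0.761-fold and 1.81-fold were within it. All 7 SLA-DRA probes were positive on arrays 1, 3 and 4, and their means ran from 0.20 to 0.39. On array 2 the probes were spread from -0.73 to 0.028, and 2 of 7 were positive.

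SLA-DRB1 encodes the polymorphic beta chain that pairs with it. Signals in non-treated tissue were 1787, 1264, 1129 and 3616, and with OXA 1930, 759.8, 979.3 and 5232. The log2 ratio was 0.11, -0.73, -0.21 and 0.53, so OXA tissue was higher on arrays 1 and 4 and lower on arrays 2 and 3. The mean was -0.074 ± 0.53 (SD, n = 4), with an interval from -0.84 to 0.69. On array 2 all 4 probes were negative, from -1.14 to -0.73, and the first of these was the lowest value of any class II probe there. On array 4 all 4 were positive, from 0.53 to 0.64. With array 2 turned, or without it, limma's estimate becomes positive (0.37 and 0.24), and neither value passed the test (limma, adjusted p = 0.376 and 0.744). In both fits array 4 is alone in its dye orientation and counts as much as the others together. The plain mean with array 2 turned was 0.29.

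The chains of DR were compared with each other within each array. SLA-DRA exceeded SLA-DRB1 in log2 ratio by 0.21, 0.75 and 0.45 on arrays 1, 2 and 3, and on array 4 the difference was -0.18. The mean difference of 0.31 ± 0.39 (SD, n = 4) was within the spread between arrays (exact two-sided sign-flip permutation test, p = 0.25, 0.75 after adjustment over 3 pairs). For DQ the alpha minus beta difference was -0.0048 ± 0.25 and for DM 0.12 ± 0.21 (exact p = 1 and 0.5). The order of the DR chains rests on the direction of array 2. With array 2 turned the mean difference was -0.068 ± 0.52 for DR (exact p = 0.875), and under the labelling protocol's dyes it was 0.021 ± 0.53 (exact p = 1). With 4 arrays this test cannot give a p below 0.125.

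SLA-DQA1 and SLA-DQB1 encode the alpha and beta chains of DQ, the other presenting pair. The SLA-DQA1 probe had signals of 4902, 2658, 3287 and 6929 in non-treated tissue and of 5288, 2818, 3432 and 8373 with OXA. Its log2 ratios of 0.11, 0.084, 0.062 and 0.27 were all positive and gave a mean of 0.13 ± 0.096 (SD, n = 4), the smallest spread between arrays of any class II probe. The interval, which also draws on the spread of other probes, ran from -0.49 to 0.75. The other SLA-DQA1 probes differed from it most on arrays 2 and 4. On array 1 the 7 probes ran from -0.0093 to 0.29 with 6 positive, and on array 3 from -0.025 to 0.32 with 5 positive. On array 2 the 7 probes ran from -0.76 to 0.13 with 2 positive, and on array 4 from 0.11 to 0.98 with 7 positive. For SLA-DQA1 the mean thus depended on the probe, from -0.032 to 0.13.

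The brightest SLA-DQB1 probe had signals of 3296, 2466, 2933 and 5442 in non-treated tissue and of 4178, 2776, 2404 and 6807 with OXA. Log2 ratios were 0.34, 0.17, -0.29 and 0.32, higher with OXA on arrays 1, 2 and 4 and lower on array 3. The mean was 0.14 ± 0.29 (SD, n = 4), with an interval from -0.52 to 0.79. On arrays 1 and 4 all 4 probes of the gene were positive. On array 2 only the brightest was, and the others ran from -0.95 to -0.085. Probe means ran from -0.017 to 0.83, so the sign of the mean depended on the probe. A_72_P631166, the dim probe of this gene, stood apart from the other 3 with ratios of 1.27, -0.95, 2.33 and 0.68. It was detected on 3 arrays with OXA and on 1 without, so its ratio rests on signals near background. Without array 2 limma called this probe and no other class II probe, in a fit that called 5.68% of all tested probes and gave 19.3% an unadjusted p under 0.05. Since it passed the filter only through the OXA channel, where it is brighter, nothing is read from that call.

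SLA-DMA and SLA-DMB encode the chains of the peptide exchange factor DM. SLA-DMA had signals of 579.7, 385.4, 613.6 and 1015 in non-treated tissue and of 1004, 321.4, 481.1 and 1765 with OXA. Its log2 ratios were 0.79, -0.26, -0.35 and 0.80. SLA-DMB followed the same signs with 0.39, -0.40, -0.34 and 0.85, from signals of 788.9, 471.9, 687 and 1123 without OXA and of 1030, 357.8, 541 and 2030 with it. Both genes were therefore higher with OXA on arrays 1 and 4 and lower on arrays 2 and 3, with both of their probes. The means were 0.24 ± 0.64 for SLA-DMA and 0.12 ± 0.60 for SLA-DMB (SD, n = 4). The intervals reached from -0.57 to 1.06 and from -0.67 to 0.92, so upward changes of up to 1.06 on the log2 scale are inside the first. Both limma estimates turned negative when array 1 or array 4 was left out. Without array 4 the estimates were -0.020 and -0.19, and without array 1 they were -0.041 and -0.059. They are not means of the arrays left. For SLA-DMA the plain mean of the arrays left stays positive in both cases. For SLA-DMB it turns negative without array 4 and stays positive without array 1. Without array 4, array 2 counts as much as arrays 1 and 3 together. Without array 1, array 3 counts as much as arrays 2 and 4 together.

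**Figure D1:**
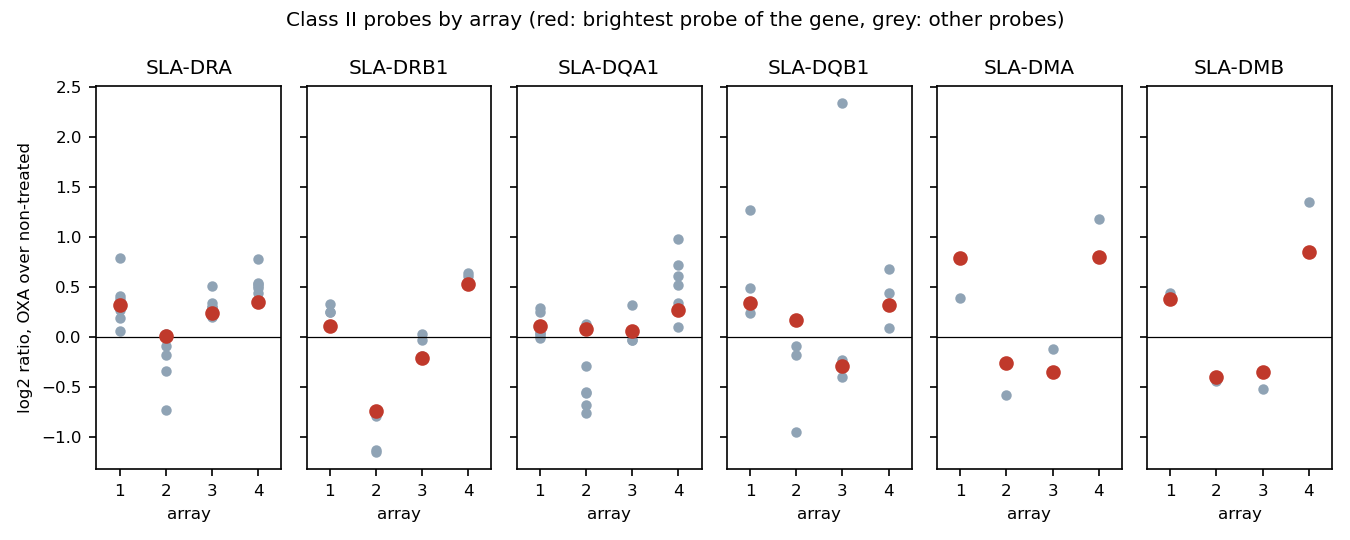
Log2 ratios (OXA over non-treated, y axis) of all 26 class II probes on arrays 1 to 4 (x axis), in a panel per gene, with the brightest probe in red and the others in grey. On array 4 all 26 probes lie above 0, and on array 2 only 5 do.

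Across the 26 probes, the sign of the ratio went with the array. The log2 ratio was above 0 for 25 of 26 probes on array 1 (50.2% of all tested probes), for 5 on array 2 (47.2%), for 14 on array 3 (50.2%) and for 26 on array 4 (50.5%). Positive values on arrays 1 and 4 together with a negative value on array 2 were seen for 20 of 26 class II probes and for 31.1% of all tested probes. Values were positive on all 4 arrays for 3 class II probes (3.96% of all tested probes) and negative on all 4 for none (3.76%). Negative values on both arrays 2 and 3, with positive ones on arrays 1 and 4, were seen for 9 class II probes (13.4% of all tested probes), among them all 4 of SLA-DMA and SLA-DMB. The 3 that were positive throughout were 2 SLA-DRA probes and 1 SLA-DQA1 probe. The mean was above 0 for 20 of 26 probes, 18 of them among the 24 that passed through both channels, against 47.2% of all tested probes. The probes share targets and RNA, so these counts are a description of 4 arrays and not of 26 replicates. On array 3 the genes parted. All 7 SLA-DRA probes were positive there, and all 4 probes of SLA-DMA and SLA-DMB were negative.

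The median over the 6 genes was 0.33, -0.12, -0.25 and 0.44 on arrays 1 to 4, with a mean of 0.10 ± 0.34 (SD, n = 4). Over all 26 class II probes it was 0.28, -0.37, 0.036 and 0.54, so the sign on array 3 depends on the choice of probes. Over all tested probes, the medians were 0.0035, -0.047, 0.0019 and 0.010. Of the 6 genes, 5 had a positive mean and 1, SLA-DRB1, a negative one. Without array 4 the count of class II probes with a positive limma estimate falls from 20 to 10, without array 1 to 14, and without array 2 it is 26 of 26. Leaving out an array also changes the weights of the others, so these counts do not reflect the missing array alone. Without array 2 the plain means were positive for 26 of 26 as well. With array 2 turned, all 26 means were positive, 11 of 26 probes were positive on all 4 arrays (17.7% of all tested probes), and 5 of 26 had an unadjusted p under 0.05 (27% of all tested probes). None of the 26 passed (lowest limma adjusted p = 0.106). With OXA in Cy5 on all arrays 14 of 26 means were positive and 0 had an unadjusted p under 0.05 (3.2% of all tested probes), and under that reading dye and OXA cannot be told apart. With the ratios recomputed from the median signals by normexp background correction and loess, 25 of 26 estimates were positive, SLA-DRA had 0.31 and SLA-DRB1 -0.045, and 0 of 26 had an unadjusted p under 0.05 (1.25% of all tested probes).

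**Figure D2:**
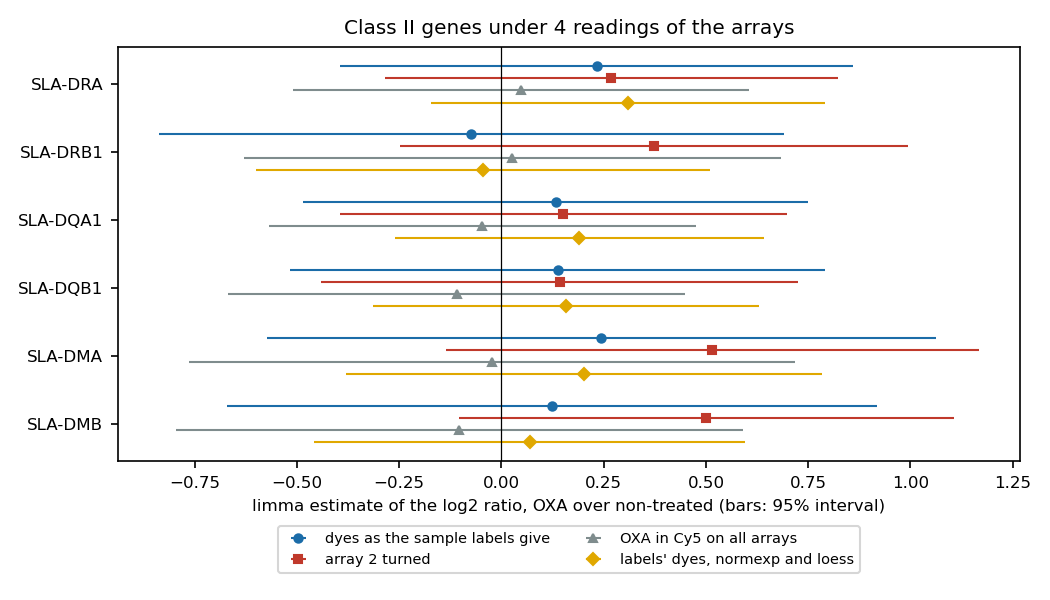
Limma estimates of the log2 ratio (x axis) with 95% intervals for the brightest probe of each class II gene under 4 readings of the arrays. Each interval spans 0, and estimates run from -0.11 (SLA-DQB1 with OXA in Cy5 on all arrays) to 0.52 (SLA-DMA with array 2 turned).

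The level of class II transcripts varied over the arrays in both channels. To compare arrays, the log2 processed signal was set relative to the median of tested probes in the same channel. SLA-DRA in non-treated tissue lay at 3.48, 3.23, 2.80 and 4.25 on arrays 1 to 4, a range of 1.45, or 2.73-fold. In OXA-treated tissue it lay at 3.82, 3.20, 3.03 and 4.65. Array 4 was thus the highest in both channels, and array 3 the lowest, while the largest distance between the channels of an array was 0.40. SLA-DRB1 followed with 2.16, 1.79, 1.49 and 2.87 in non-treated tissue and 2.29, 1.02, 1.27 and 3.45 with OXA. SLA-DMA had 0.53, 0.079, 0.61 and 1.04 in non-treated tissue, a narrower range of 0.96, and 1.34, -0.22, 0.25 and 1.88 with OXA.

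Taken as the mean of an array's channels, which does not depend on the dye direction, the level was highest on array 4 for 26 of 26 class II probes, against 27.7% of all tested probes. With the dyes as labelled, the brightest probes of all 6 genes, and 22 of 26 probes, were highest on array 4 in both channels, against 9.92% of all tested probes. With array 2 turned the count was again 22 of 26 (12.8% of all tested probes). With OXA in Cy5 on all arrays it was 16 of 26 probes and 4 of 6 brightest probes (7.89% of all tested probes), and SLA-DMA and SLA-DMB were then highest on array 1 in the OXA channel. Scaled to the 75th percentile the channels gave 22 probes (9.05% of all tested probes), and quantile-normalized they gave 24 (8.17%). Without scaling the count was 25, but the share of all tested probes was then 28%. These readings and the 3 scalings were chosen after seeing the data. The median range over arrays for the 26 probes was 1.07 in non-treated and 1.85 in OXA-treated tissue, and over all tested probes it was 0.93 and 1.16. Which channel varied more depends on the dye reading. With array 2 turned the class II ranges were 1.43 and 1.77, and under the labelling protocol's dyes they were 2.12 and 1.20, so that the order turned. For the mean of the channels the median range was 1.53, against 0.83 for all tested probes. No test of the difference between arrays is given, since each array is a single sample of each condition.

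**Figure D3:**
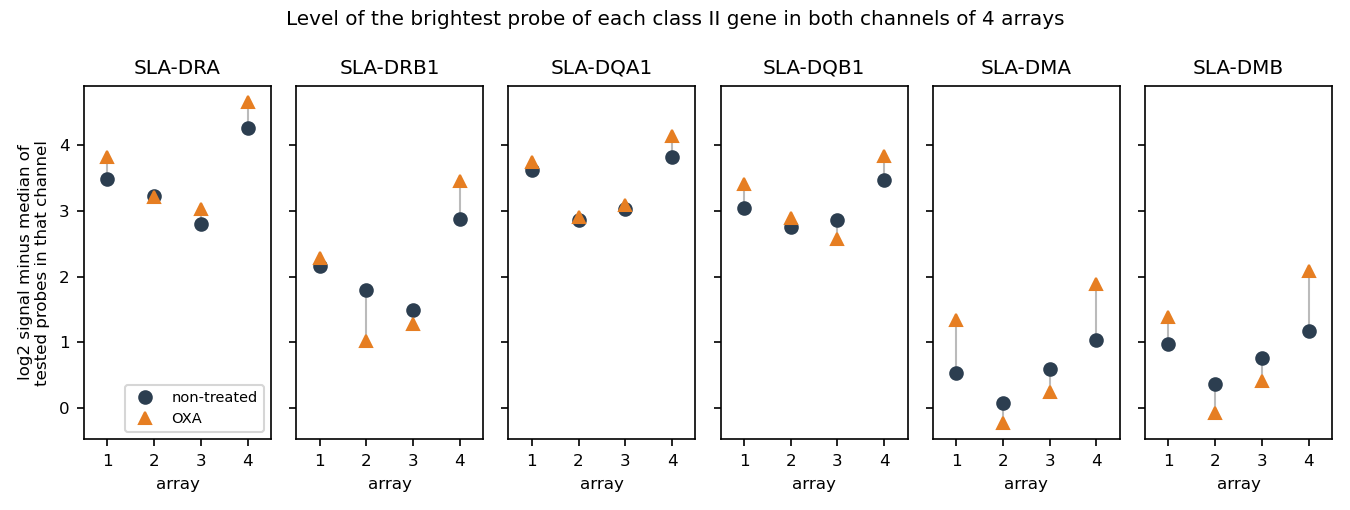
Level of the brightest probe of each class II gene (y axis, log2 processed signal minus the median of tested probes in that channel) on arrays 1 to 4 (x axis), with circles for non-treated and triangles for OXA-treated tissue. With the dyes as labelled, array 4 is highest in both channels in all 6 panels. With OXA in Cy5 on all arrays, circle and triangle trade places on arrays 2 and 4, and this then holds in 4 of the 6 panels, not for SLA-DMA and SLA-DMB.

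Other genes of the class II pathway gave no call either. Of 26 listed genes, 12 had a named probe and 9 were tested, 0 of which passed or had an unadjusted p under 0.05. Of the tested 9, 4 had a positive mean and 5 a negative one, and array medians were 0.21, -0.19, -0.036 and 0.40. CD74, the invariant chain that occupies the peptide groove until DM removes it, had log2 ratios of -0.29, -0.59, 0.074 and 0.40, a mean of -0.10 ± 0.43 (SD, n = 4). Its other probe had a mean of 0.21, so the probes of CD74 disagreed in sign. SLA-DOA, the alpha chain of DO, which restrains DM, had 0.46, 0.019, -0.64 and 0.69, with a mean of 0.13 ± 0.58. SLA-DOB, for its beta chain, was not detected in any channel of the 4 arrays. CIITA, the transactivator of class II genes, and the invariant chain protease CTSS had no named probe here.

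Enzymes that prepare peptides in endosomes were measured beside them. IFI30, which reduces disulphide bonds of antigens, had 0.47, -0.19, 0.022 and 0.40, with a mean of 0.17 ± 0.31 (SD, n = 4). CTSB, cathepsin B, had 0.10, 0.00070, -0.036 and 0.82, with a mean of 0.22 ± 0.40, array 4 being the only clearly positive value. NFYB, a subunit of the NF-Y factor that binds class II promoters, had a negative ratio on all 4 arrays, with a mean of -0.32 ± 0.34. Among surface molecules of antigen presentation, the costimulatory receptor CD40 had 0.30 ± 0.43, the costimulatory ligand CD86 had -0.099 ± 0.69, and LAG3, a T cell receptor for class II, had -0.40 ± 0.64 (SD, n = 4). Each of these SDs is larger than the mean beside it. CD4 and CD80, like SLA-DOB named after their values were seen, were not detected on any array.

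Interferon gamma signalling and the class I pathway were set beside the class II genes. Of 14 genes of the interferon gamma axis 11 were tested, 4 with a positive and 7 with a negative mean, and array medians were 0.15, 0.55, -0.35 and -0.27. These differ in sign from the class II medians on arrays 2 and 4, and on array 3 from the median over the 26 probes (0.036) only. IFNG itself, also named after its values were seen, was not detected on any array. Of 18 class I pathway genes 12 were tested, 9 of them with a positive mean, and array medians of 0.27, -0.24, -0.29 and 0.58 had the sign of the 6-gene class II medians on each array. On array 3 this does not hold for the median over the 26 class II probes, 0.036. In both lists 0 genes passed the test.

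Markers of cells that carry class II molecules moved with the array as well. Of 15 macrophage markers 10 were tested, and the brightest probes of all 10 had a positive mean, with array medians of 0.62, -0.67, 1.57 and 0.73. On arrays 1, 2 and 4 these had the sign of the class II medians. On array 3 they had the sign of the median over the 26 class II probes (0.036) but not of that over the 6 genes (-0.25). AIF1, a calcium-binding protein of macrophages, had 0.61, -0.37, 1.21 and 0.94, with a mean of 0.60 ± 0.69 (SD, n = 4). C1QB, a chain of complement C1q, had 0.95, -1.35, 2.39 and 0.73, and FCER1G, the signalling chain of Fc receptors, had a mean of 0.38 ± 0.68. Some markers, named after their values were seen, went against the list medians. CD163 did so on arrays 1, 2 and 4 (-0.64, 0.30 and -0.32), and its other probe had a negative mean (-0.093). MRC1 was negative on array 4 (-0.29) and CD14 on array 3 (-0.057). The other tested markers had the sign of the list median on every array. C1QB was called without array 2 (estimate 1.20, limma adjusted p = 0.0308), and under no other alternative.

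The summed signal of the 10 macrophage markers ran from 1897 to 6863 in non-treated and from 1734 to 11771 in OXA-treated tissue. These sums are not scaled, and array 4 was also the brightest array over all tested probes. With the dyes as labelled the macrophage sum was highest on array 4 in both channels, as was that of the class II genes (10665 to 27513 and 10487 to 36218). So were the sums of the other class II pathway genes, the class I pathway and smooth muscle. Gene by gene, relative to the channel medians, this held for 7 of 10 macrophage and 4 of 7 smooth muscle genes. It held for 1 of 9 other class II pathway genes and 0 of 12 class I pathway genes (9.92% of all tested probes). Under the labelling protocol's dyes the macrophage sum in the OXA channel was highest on array 1 (7410, against 6863 on array 4), while the class II sum was still highest on array 4 in both channels. The lowest macrophage sum in non-treated tissue was on array 3 (1897) with the dyes as labelled and on array 2 (1734) with array 2 turned. Each of the 11 macrophage markers with a named probe was detected in at least 1 channel, and CD68, CSF1R, MSR1 and MARCO had no named probe here. The part of macrophages in the class II values was not tested. Of 10 dendritic cell markers 2 were tested, the chemokine receptors CCR7 and XCR1, with means of 0.63 ± 0.69 and 0.40 ± 0.57 (SD, n = 4) and a negative value on array 2 for both. The B cell markers CD79A and MS4A1 were detected in no channel, and 0 of 7 T cell markers with a named probe passed the filter, with CD2, CD3D and CD4 detected in no channel.

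Uterine epithelium markers, for 4 tested genes, had array medians of -1.46, 2.06, -1.04 and 1.98 and summed signals from 199 to 2052 in non-treated and from 82 to 8058 in OXA-treated tissue. Their sign differed from that of the class II medians, over genes and over probes, on arrays 1 and 2. Endothelial markers had medians of -0.40, -0.18, 0.26 and 0.59, the 2 fibroblast and stroma markers -0.16, -0.40, 0.061 and -0.86, and the 7 smooth muscle genes -0.083, -0.17, 0.23 and -0.28. The part of these cells in the class II values was not tested.

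**Figure D4:**
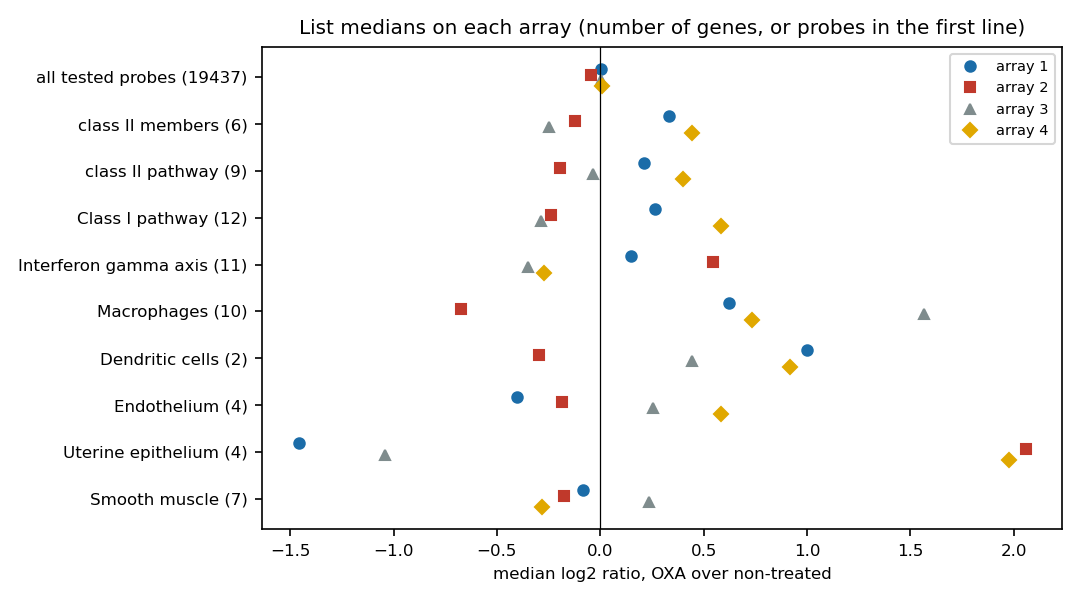
Median log2 ratio (x axis, OXA over non-treated) of each gene list on arrays 1 to 4 (symbols), with the number of genes in parentheses. The class II medians over 6 brightest probes and the class I medians share their signs on all 4 arrays (over all 26 class II probes the array 3 median is 0.036, of the other sign), macrophage markers reach 1.57 on array 3, and the medians of all tested probes stay within 0.047 of 0.

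The genes whose ratios were closest to the class II genes over the 4 arrays were taken by Euclidean distance between the log2 ratios of a gene's brightest probe and the mean of the 6 class II genes (0.34, -0.19, -0.15 and 0.52). Among 1979 named genes the nearest were IFN-ALPHA-10, a type I interferon of a family with near-identical copies, at a distance of 0.0512, the retinol-binding protein receptor STRA6 at 0.0843 and SPRYD3 at 0.152. PSMC5, an ATPase subunit of the proteasome, followed at 0.154 and DHX58, an RNA sensor of the RIG-I-like family, at 0.167. The median distance was 0.974. With 4 values per gene, close neighbours are found among so many genes whatever the profile, and no more is read from the list. CD74 ranked 762 and SLA-DOA 389 by the same distance.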

How the data were processed

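RNA of treated and non-treated explants was hybridised to 4 Agilent dual-colour arrays. Spot intensity was extracted by the authors with version 10.7.3.1 of Agilent's Feature Extraction software (per the file headers), which gives processed signals that are background-subtracted and dye-normalized, flags, and a log10 ratio of Cy5 over Cy3. The deposited value table holds log2 ratios. Set against the scanner's ratios, its columns had slopes of 1.00, -1.00, 1.00 and -1.00 in array order, and it therefore runs as OXA over non-treated with the dyes of the sample labels. At least 99.9% of tested probes lay within 0.001. Column medians were 0.10, 0.10, -0.19 and 0.067. Given that match, the columns were not centred further against the scanner's ratios.

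Design accessions were matched without versions to RefSeq genes of Sscrofa11.1, which named 6700 of 43603 probes. Ratios came from the value table, levels and flags from the scanner files, and a probe whose spots were all flagged as outliers on an array had no value there. Of all probes, 19505 (44.7%) were tested with limma 3.58.1 in R 4.3.3, with terms for OXA and for dye bias (2 residual and 4.13 prior degrees of freedom), two-sided, with Benjamini-Hochberg adjustment over all tested probes at 0.05. The fit was tested on simulated data. The number of arrays limits the precision, and since the labels speak of separate experiments, p-values measure the spread between these 4. Named genes were the class II genes, the 8 pathway genes with the smallest p plus CD74, CIITA and CTSS, up to 3 of the brightest markers of a cell list, and 5 genes of like pattern. The class II genes, the lists and the alternatives were chosen with earlier results of these data known. A listed marker is not reported here. Figures were drawn with matplotlib 3.10.9.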

Additional observations from a re-analysis of the deposited data

Results flagged for a closer look

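Of 61 sets of 4 array values examined, 2 held a value separated from its nearest neighbour by more than the 95% critical share of the range (Dixon). About 5% of sets are expected by chance. The SLA-DRA probe A_72_P610249 had a log2 ratio of -0.34 on array 2 and of 0.35 to 0.44 on arrays 1, 3 and 4. CTSB, the cathepsin B gene, had 0.82 on array 4 and -0.036 to 0.10 on the others.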

How the results depend on the processing

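No class II gene was called in any of 72 recomputed values (6 brightest probes under 12 alternatives, lowest limma adjusted p = 0.247). SLA-DRA kept a positive estimate throughout. The 0 probes called in all became 1 to 1108 when an array was left out (1108 without array 2), and 237 at an unadjusted p under 0.05. With OXA in Cy5 on all arrays, SLA-DMA (-0.023), SLA-DMB (-0.10), SLA-DQA1 (-0.047), SLA-DQB1 (-0.11), SLA-DOA (-0.22) and CTSB (-0.19) turned negative, and SLA-DRB1 (0.027), LAG3 (0.48), NFYB (0.15) and CD86 (0.57) turned positive. With array 2 turned, SLA-DRB1 (0.37) and CD74 (0.26) turned positive. When arrays were left out in turn, estimates ran from -0.39 to 0.24 for SLA-DRB1, -0.041 to 0.53 for SLA-DMA, -0.19 to 0.44 for SLA-DMB, -0.020 to 0.29 for SLA-DQB1, -0.35 to 0.15 for CD74, -0.14 to 0.41 for SLA-DOA and -0.23 to 0.028 for CD86. With array 2 turned or an array left out, the weights of the arrays change too, so these limma estimates are not plain means. Beyond this weighting, the cause of the changes was not tested. The number of class II probes with a positive estimate, 20 of 26, ran from 10 to 26. Under the same Cy5 reading the list medians of epithelium (-1.63), fibroblasts (0.29) and smooth muscle (0.15) moved by more than their SD. The median over the class II genes, averaged over the arrays (0.10), moved by less than its SD between arrays (0.34) under all 13 alternatives. That limit decides little, since leaving out 1 of 4 arrays cannot move such an average by a full SD. Changes of the filter, the dye term or the array weights left the average as it was. The average turned negative under the Cy5 reading (-0.059) and without array 4 (-0.013), and was positive under the other alternatives. Each ratio already pairs treated and non-treated RNA of an array, so no further replicate block was fitted. CD86, LAG3, SLA-DOA, XCR1 and the epithelium list have no value when detection in every channel is required. Signal over background limits A_72_P631166 and A_72_P629649, which were dim in both channels. Each was detected on 3 of 4 arrays with OXA, and on 1 and 2 arrays without it.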

Other observations

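The SLA-DRA probe A_72_P683574 differed from the other 6 probes of its gene in its step from array 1 to array 4, a pattern noticed after the values were seen. In non-treated tissue its level relative to the channel median was 2.07 higher on array 4 than on array 1 (log2), against 0.75 to 1.06 for the other probes. In OXA-treated tissue the difference was 1.85, against 0.83 to 1.56. The brightest probe had the smallest SD between arrays in 5 of 6 class II genes, and SDs over the 26 probes ran from 0.096 to 1.37.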
